A study of Mus musculus with 4 samples.

Results

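The p21-activated kinases Pak1, Pak2, Pak3 and Pak4, the GTPase gene Cdc42 and the CDC42 effector protein genes Cdc42ep1 to Cdc42ep5 were followed in cultured mouse hair follicle stem cells (HFSCs). These 10 genes were chosen by symbol, and all 10 were found among the 24346 gene symbols listed for every library. The study asked how gene expression of HFSCs differed after long-term culture. HFSCs were cells positive for CD49f and CD34, sorted from dorsal skin of C3H/HeN mice aged 4 weeks and grown in one commercial serum-free medium (M-CnT) with no other treatment. The groups were cells after 10 passages (10p-HFSCs, 2 libraries) and after 48 passages (48p-HFSCs, 2 libraries). Nothing in the labels or methods says that the libraries of a group came from separate cultures or animals, so the error terms cover the spread between these libraries, which may be technical. Each value is the FPKM of a gene as computed by the authors, a level per transcript length that can be compared between genes. By its name, FPKM is reads per gene corrected for exon length and for the mapped reads of the library.

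CDC42 is a small GTPase that switches between an inactive GDP-bound and an active GTP-bound state, and is known for its roles in cell polarity, filopodia and the upkeep of hair follicle progenitor cells in mouse skin. Active CDC42, or its relative RAC, binds a short CRIB sequence in its effectors. In group I kinases (PAK1, PAK2 and PAK3) this binding relieves an autoinhibited state, while PAK4 belongs to group II. PAK kinases phosphorylate, among others, LIM kinases that act on cofilin and so on actin filament turnover. The CDC42 effector proteins, also called BORG proteins, carry a CRIB sequence without a kinase and bind septins, which form filaments beneath the membrane.

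The 250 bases before annotated start sites are shown for the genes with the largest increases in level, Pak3, Pak1 and Cdc42ep2 (RefSeq annotation, build GRCm38.p6, which has the coordinates of mm10, written 5′ to 3′ on the strand of the gene). Capitals mark matches to any of 5 motifs, each searched on both strands. The GC box was spelled GGGCGG. For the CCAAT box the letters searched were those of its name. The TATA box was searched with the spelling TATAAA. The sequence of AP-1 factors was spelled TGANTCA, in which N is any base, and that of TEAD factors was searched with the spelling GGAATG.
Pak3, start site 1 (chrX:143518341-143518590, plus strand): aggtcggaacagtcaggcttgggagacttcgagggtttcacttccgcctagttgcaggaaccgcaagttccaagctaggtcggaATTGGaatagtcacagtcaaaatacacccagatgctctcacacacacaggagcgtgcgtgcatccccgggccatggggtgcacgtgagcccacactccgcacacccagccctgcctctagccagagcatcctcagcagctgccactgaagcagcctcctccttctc
Pak3, start site 2 (chrX:143665495-143665744, plus strand): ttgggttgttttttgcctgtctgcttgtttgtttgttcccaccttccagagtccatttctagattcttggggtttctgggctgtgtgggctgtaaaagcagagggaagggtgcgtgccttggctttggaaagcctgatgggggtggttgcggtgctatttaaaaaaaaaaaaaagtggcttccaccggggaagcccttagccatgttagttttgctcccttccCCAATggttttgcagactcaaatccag
Pak3, start site 3 (chrX:143693037-143693286, plus strand): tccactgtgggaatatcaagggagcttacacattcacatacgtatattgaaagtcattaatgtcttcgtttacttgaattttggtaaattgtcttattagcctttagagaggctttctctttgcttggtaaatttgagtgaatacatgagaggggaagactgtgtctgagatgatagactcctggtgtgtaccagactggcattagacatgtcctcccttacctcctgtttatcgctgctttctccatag
Pak1, start site 1 (chr7:97788291-97788540, plus strand): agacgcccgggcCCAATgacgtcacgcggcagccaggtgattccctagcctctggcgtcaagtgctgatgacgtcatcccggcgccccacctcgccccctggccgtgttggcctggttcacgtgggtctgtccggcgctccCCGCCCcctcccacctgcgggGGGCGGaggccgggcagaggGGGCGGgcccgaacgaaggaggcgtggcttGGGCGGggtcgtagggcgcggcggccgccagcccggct
Cdc42ep2 (chr19:5924817-5925066, minus strand): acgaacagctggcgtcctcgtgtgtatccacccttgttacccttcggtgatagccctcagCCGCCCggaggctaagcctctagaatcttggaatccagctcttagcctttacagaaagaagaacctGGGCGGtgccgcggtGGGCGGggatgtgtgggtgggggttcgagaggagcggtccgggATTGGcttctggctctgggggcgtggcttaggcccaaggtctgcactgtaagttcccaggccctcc
Pak3 has 3 annotated start sites and Pak1 has 2, and an FPKM per gene does not tell from which of them a transcript began. The windows of Pak3 held 0 GC boxes, that of Cdc42ep2 held 3 and those of Pak1 held 4 and 3, while 32.7% of all 32851 annotated windows of this length held at least 1. A CCAAT box was found in the first and second windows of Pak3, in both windows of Pak1 and in that of Cdc42ep2, against 33.8% of all windows. TATA boxes, AP-1 sequences and TEAD sequences (12.4%, 6.7% and 12.6% of all windows) were not found in the windows of these 3 genes. The CpG count was 10, 3 and 3 in the windows of Pak3, 29 and 7 in those of Pak1 and 14 in that of Cdc42ep2, with a median of 6 over all windows. Windows were found for 9 of the 10 genes, all but Pak2.

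The libraries carried the keratins and adhesion genes of basal keratinocytes, but few of the markers that define the follicle bulge. The summed FPKM of 8 keratinocyte markers was 3198 to 3873 in 10p-HFSCs and 8196 to 12780 in 48p-HFSCs. Most of this sum was Krt5 and Krt14, neither of which was called by the rule given below. Of the 8 markers, 2 were called higher (Itga6 and Itgb4) and 0 lower. Epcam was at 337.6 and 287.7 against 150.1 and 237.5, and the groups of Trp63 and Dsp overlapped. The summed FPKM of 6 hair follicle stem cell markers was 181.9 and 127.1 after 10 passages against 445.1 and 27.2. Of these, Krt15 was at 136 and 82.6 against 424.8 and 18.8, and Sox9 fell from 45.6 and 44.2 to 20.2 and 8.31 (limma adjusted p = 0.039). Cd34 reached at most 0.234 and Lhx2, Lgr5 and Nfatc1 at most 0.0303 in any library. For some of these genes the study itself reported otherwise. By quantitative RT-PCR over a series of passages that included these 2, it found Sox9 and Lhx2 increased in 48p-HFSCs and Cd34 and Krt15 maintained. Its text does not name the passage against which the increase was measured. Here the groups of Krt15 overlapped, so no disagreement is shown for that gene. By immunostaining the study found most cells of both passages positive for CD34. The cause of the disagreement on the other genes was not tested. Other cell type markers moved with passage. The summed FPKM of 10 dermal fibroblast markers was 353 and 388 after 10 passages and 5.88 and 4.17 after 48. The fall was carried by Vim and Col1a2, with Lum, Dcn and Thy1 at 0 in every library. Twist2 of the same list went the other way, from 0.0441 and 0.0615 to 3.35 and 0.849. The summed FPKM of 5 leukocyte markers was 0.641 and 0.694 against 64.3 and 104.2, mostly from Cd74. Lyz2 of this list rose as well, from 0.286 and 0.479 to 3.04 and 1.96. Cd3e and Tyrobp were at 0 in every library and Ptprc was at most 0.0711. The sums were 10.9 to 12.9 against 15.6 to 20.6 for 7 neuronal markers, with Snap25, Syt1 and Dcx at 0 in every library. Of the neuronal markers, Map2 rose from 3.92 and 2.81 to 19.7 and 14.6 (limma adjusted p = 0.0082). Tubb3 was at 8.94 and 8.08 against 0.892 and 0.895. It reached an FPKM of 1 in 10p-HFSCs alone, so it had to differ and no p-value is given. The sums were 1.43 to 1.503 against 4.06 to 11.9 for 7 melanocyte markers and 2.34 to 2.61 against 0.292 to 1.37 for 5 endothelial markers. The part of these markers in the values that follow was not tested, and in RNA of whole cultures fewer cells of a type and less RNA per cell cannot be told apart. Low FPKM values were compared with those of replicate 1 of 10p-HFSCs. Their most common ratio was 1.396 in replicate 2 of 10p-HFSCs, and 1.206 and 2.141 in replicates 1 and 2 of 48p-HFSCs. This spacing mixes depth with any scaling between libraries, so it does not give depth. It was widest in replicate 2 of 48p-HFSCs, which thus has the coarsest low values.

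Of the 10 genes, 9 reached an FPKM of 1 in 2 or more libraries and entered the comparison, which covered 11018 genes in all, on the log2(FPKM + 1) scale. The later-passage values were both above the earlier ones for 7 of the 10 genes, both below them for Pak2 and Cdc42ep4, and on either side of them for Cdc42ep1. Cdc42ep5, which is among the 7, did not pass the filter, while the shares that follow cover only genes that did. Among all genes tested, groups did not overlap for 65.9%, upward for 31.7% and downward for 34.3%. By the rule applied to all genes (limma, an adjusted p of less than 0.05 with a change of 2-fold or more), 3 of the 9 genes were called higher in 48p-HFSCs, Pak1, Pak3 and Cdc42ep2, and 0 lower, beside 10.8% and 9.15% of all genes. The genes were chosen with results of this comparison known, so these counts and the values below are a description and carry no test. Pak3 passed the filter through 48p-HFSCs alone, so it had to differ. With replicate 1 or replicate 2 of 10p-HFSCs left out, calls over all genes dropped to 35 or 36 higher and 140 or 146 lower, and 0 of the 10 genes were called, while the log2 difference was 1.14 or 1.17 for Pak1, 3.27 either way for Pak3 and 1.80 or 2.04 for Cdc42ep2. Without replicate 1 of 48p-HFSCs, 5 were called higher (Cdc42 and Pak4 in addition) and Cdc42ep1 lower, beside 1936 and 1875 of all genes. Without replicate 2 of 48p-HFSCs, Pak1 was no longer called, at a log2 difference of 0.88. Without the filter on low values, and after rescaling to TPM, which sets all library sums equal (summed FPKM was 581516 to 1414953), Pak3 alone was called. The log2 differences of Pak1 and Cdc42ep2 were the same without the filter, and 0.59 and 1.65 under TPM rescaling.

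**Figure D1:**
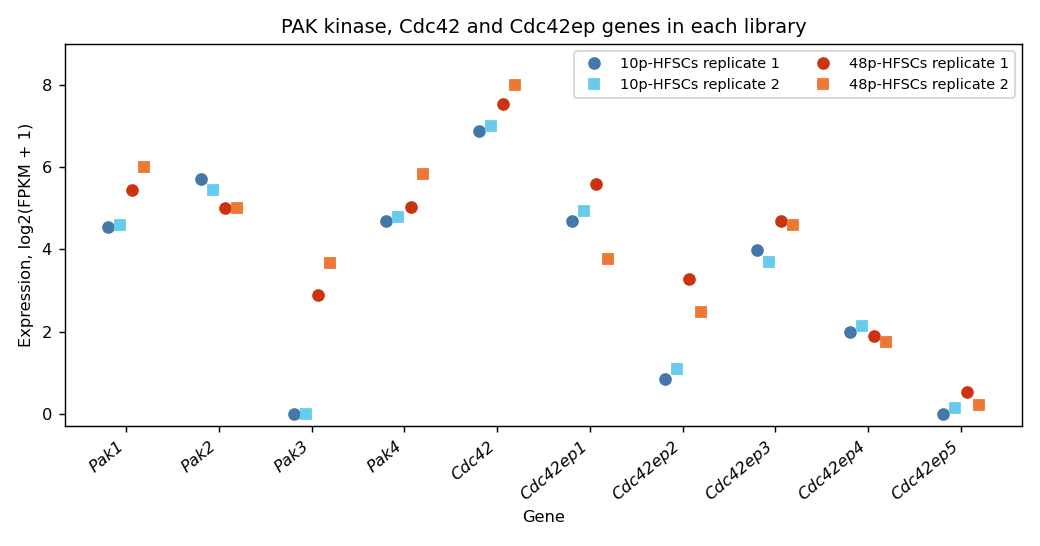
Expression of each of the 10 genes on the log2(FPKM + 1) scale in the 4 libraries (blue, 10p-HFSCs; red and orange, 48p-HFSCs; circles, replicate 1; squares, replicate 2). Pak3 is at 0 in both 10p-HFSC libraries and above 2 on this scale in both 48p-HFSC libraries, and Cdc42ep1 is the one gene whose groups overlap.

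Pak3, the group I kinase best known from brain, was the one member listed above 0 in 48p-HFSCs alone. Its FPKM was 0 in each library at 10 passages, and 6.37 and 11.7 in replicates 1 and 2 of 48p-HFSCs. The groups were thus separate, with replicate 2 the higher of the 48p-HFSC libraries. The log2 difference was 3.27 (standard error 0.33, n = 2 per group) with a pseudocount of 1 and 6.45 with a pseudocount of 0.1, so its size depends on that choice, and no fold can be given against values of 0. Pak3 moved from the lowest 1% of the genes tested to the percentiles 31.9 and 51.0, which places it among ordinary expressed genes. No stretch of its annotated transcripts as long as a read occurred in a transcript of another gene, so reads of Pak1 or Pak2 that match without mismatch could not be assigned to it.

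Pak1, a group I kinase that is widely expressed, was at 22.5 and 23.0 FPKM after 10 passages and at 42.7 and 62.8 FPKM after 48. All 4 pairings of a 48p-HFSC with a 10p-HFSC library gave a higher value, by 0.89 to 1.48 as a log2 ratio. The log2 difference was 1.15 (standard error 0.28, n = 2 per group), a 2.32-fold ratio of mean FPKM, and it was 0.59 under TPM rescaling. Pak2, the most abundant PAK gene at 10 passages, was the one kinase with lower values later. It was at 51.6 and 42.9 FPKM after 10 passages and at 31.1 and 31.0 FPKM after 48. The groups did not overlap, and the 48p-HFSC libraries were nearly equal. The log2 difference was -0.58 (standard error 0.25, n = 2 per group), a mean 1.52-fold lower, and it did not pass the rule for a call.

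The summed level of the group I kinases was carried mostly by Pak2 at 10 passages and mostly by Pak1 at 48. The summed FPKM of Pak1, Pak2 and Pak3 was 74.0 and 65.9 after 10 passages and 80.1 and 105.5 after 48. Pak2 made up 69.7% and 65.1% of this sum after 10 passages and 38.8% and 29.4% after 48. Pak1 made up 30.3% and 34.9% against 53.3% and 59.5%, and Pak3 took up 7.95% and 11.1% in 48p-HFSCs. These shares are ratios within a library, which a scaling factor for the library does not change. The ratio of Pak1 to Pak2 was 0.436 and 0.536 after 10 passages and 1.37 and 2.03 after 48, so the order of these kinases was the opposite at the later passage in both libraries.

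**Figure D2:**
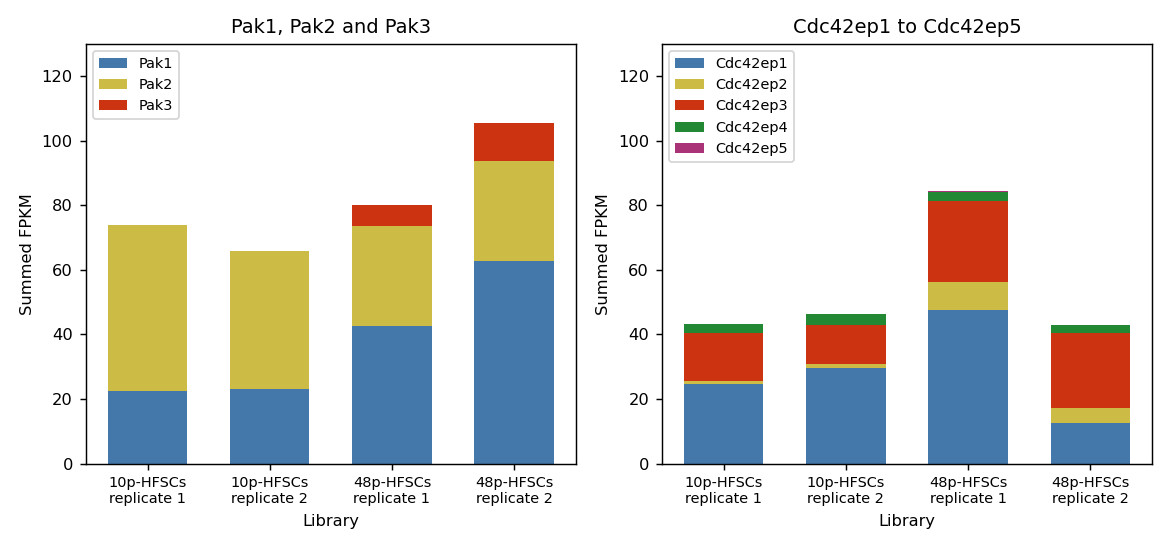
Stacked FPKM of Pak1, Pak2 and Pak3 (left) and of Cdc42ep1 to Cdc42ep5 (right) in each of the 4 libraries. Pak2 is the largest part of the left bars in both 10p-HFSC libraries and Pak1 in both 48p-HFSC libraries, while the right bar of replicate 1 of 48p-HFSCs reaches 84.5 and the others 43.0 to 46.3.

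Pak4, the group II kinase of the set, was at 24.9 and 26.7 FPKM after 10 passages and at 31.7 and 56.5 FPKM after 48. Its 48p-HFSC values were both higher but lay far apart, and the log2 difference of 0.69 (standard error 0.34, n = 2 per group) did not pass the rule for a call. It was 0.12 under TPM rescaling. Of the other group II kinases, Pak6 was at 9.51, 10.5, 15.2 and 10.6 in the order of the libraries above, with a log2 difference of 0.32, and Pak5 (listed as Pak7) was at 0 in every library.

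Cdc42, the GTPase itself, was the most abundant of the 10 genes in every library. It was at 116.5 and 128 FPKM after 10 passages and at 187 and 255 FPKM after 48. The groups did not overlap, and Cdc42 lay between the percentiles 94.2 and 96.1 of the genes tested in all 4 libraries. Its log2 difference of 0.83 (standard error 0.32, n = 2 per group), a 1.80-fold ratio of means, did not pass the rule for a call, and it was 0.25 under TPM rescaling.

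Among the effector proteins, Cdc42ep2 (also called Borg1) had the largest difference. It was at 0.797 and 1.11 FPKM after 10 passages and at 8.79 and 4.55 FPKM after 48. The groups were separate, with replicate 1 the higher 48p-HFSC library, opposite to Pak3. The log2 difference was 1.92 (standard error 0.35, n = 2 per group), which understates a 6.98-fold ratio of mean FPKM because the 10p-HFSC values lie near the 1 added to each FPKM. Cdc42ep3 (Borg2) was at 14.9 and 11.9 FPKM after 10 passages and at 25.0 and 23.3 FPKM after 48. Its log2 difference of 0.81 (standard error 0.26, n = 2 per group) did not pass the rule for a call, and it was 0.26 under TPM rescaling. All 4 library pairs, which share libraries, gave a log2 ratio of FPKM between 0.65 and 1.07. Of the 2209 read-length stretches in its transcripts, 92 were shared with Gm17315, a noncoding gene that overlaps it on the opposite strand, and the strand setting of the authors' counting is not given in the sources used here.

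Cdc42ep1 (Borg5) gave no direction. It was at 24.7 and 29.8 FPKM after 10 passages and at 47.5 and 12.6 FPKM after 48, so one 48p-HFSC library lay above and the other below both 10p-HFSC libraries. The log2 difference was -0.13 (standard error 0.59, n = 2 per group), and it was 0.79 without replicate 2 and -1.05 without replicate 1 of 48p-HFSCs. Cdc42ep4 (Borg4) was low throughout, at 2.997 and 3.41 FPKM after 10 passages and at 2.71 and 2.33 FPKM after 48, with a log2 difference of -0.26 (standard error 0.26, n = 2 per group). Cdc42ep5 (Borg3) was nearly silent, listed at 0 and 0.103 FPKM after 10 passages and at 0.445 and 0.158 FPKM after 48, and did not pass the filter. The summed FPKM of the 5 effector genes was 43.3 and 46.3 after 10 passages and 84.5 and 43.0 after 48, so that replicate 1 of 48p-HFSCs alone stood above the others. The share of Cdc42ep2 in this sum was 1.84% and 2.40% after 10 passages and 10.4% and 10.6% after 48, close to each other within each group.

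**Figure D3:**
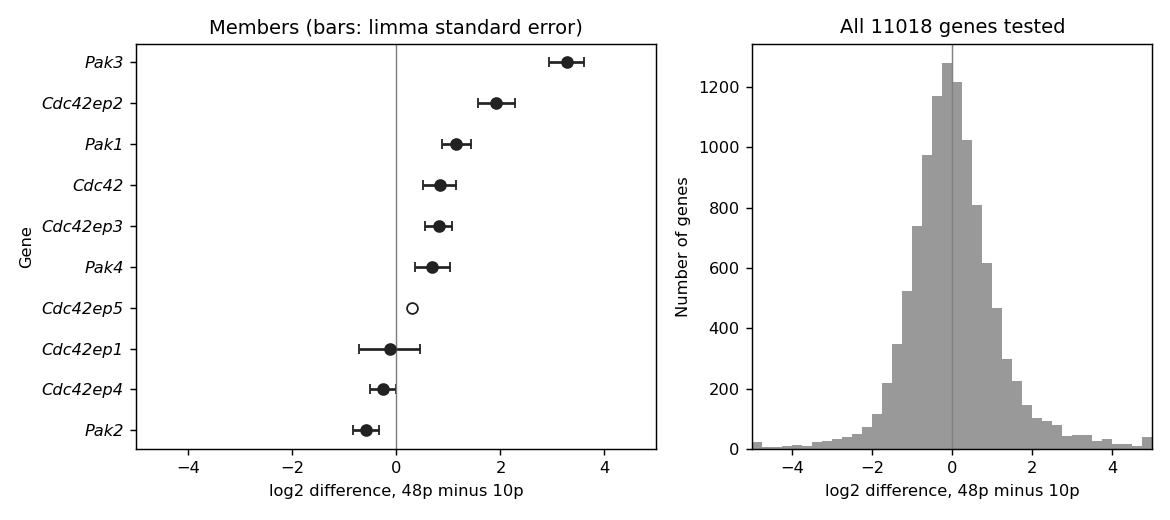
Left, log2 difference of each gene (48p-HFSCs minus 10p-HFSCs, on the log2(FPKM + 1) scale) with the standard error of limma as bars, and an open circle for Cdc42ep5, which was not tested. Right, a histogram of the same difference over the 11018 genes tested, with values beyond 4.9 in either direction placed in the end bins, and Pak3 at 3.27 and Pak2 at -0.58 mark the ends of the 10 genes.

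By level, the 10 genes kept Cdc42 on top and reordered below it. In 10p-HFSCs the order of mean FPKM was Cdc42 (122), Pak2 (47.2), Cdc42ep1 (27.2), Pak4 (25.8), Pak1 (22.7), Cdc42ep3 (13.4), Cdc42ep4 (3.20), Cdc42ep2 (0.955), Cdc42ep5 (0.0516) and Pak3 (listed at 0). Cdc42ep1 and Pak4, and Cdc42ep5 and Pak3, overlapped between neighbours there. In 48p-HFSCs it was Cdc42 (221), Pak1 (52.8), Pak4 (44.1), Pak2 (31.0), Cdc42ep1 (30.1), Cdc42ep3 (24.2), Pak3 (9.03), Cdc42ep2 (6.67), Cdc42ep4 (2.52) and Cdc42ep5 (0.302). There the libraries of Pak1 and Pak4, of Pak2 and Cdc42ep1, of Cdc42ep1 and Cdc42ep3, and of Pak3 and Cdc42ep2 overlapped, so these neighbours are not ordered beyond their spread.

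The genomic surroundings of Pak3 and Pak2 differed (mm10, GENCODE release M21). Pak3 lies on chromosome X from 143518591 to 143797796. Of the 3 nearest protein-coding genes on each side, Chrdl1, Rtl9 (listed as Rgag1), Capn6, Dcx and A730046J19Rik had an FPKM of at most 0.183 in every library, and Capn6, which starts 4.4 kb after Pak3, went from 0.175 and 0.183 to 0.0176 and 0. The remaining neighbour, Ammecr1, was at 4.997 and 2.96 FPKM after 10 passages and at 3.57 and 0.216 FPKM after 48. Higher values in 48p-HFSCs were therefore seen for Pak3 and for none of these 6 neighbours. The median log2 difference of the 338 genes tested on chromosome X was 0.11. Pak2 lies on chromosome 16 from 32016290 to 32079342, where 5 of 6 neighbours were expressed and all 5 had a lower mean in 48p-HFSCs on the log2 scale. Senp5, a SUMO protease gene 13.0 kb away, was called lower with a log2 difference of -1.38, and Ncbp2, a cap-binding protein gene, with -1.01, while Pigx (-0.71), Cep19 (-1.67) and 0610012G03Rik (-0.51) were not called. The median log2 difference of the 340 genes tested on chromosome 16 was -0.40, against -0.03 over all genes, so the -0.58 of Pak2 is close to that of its chromosome. For the chromosomes of the other 8 genes this median lay between -0.11 and 0.30.

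**Figure D4:**
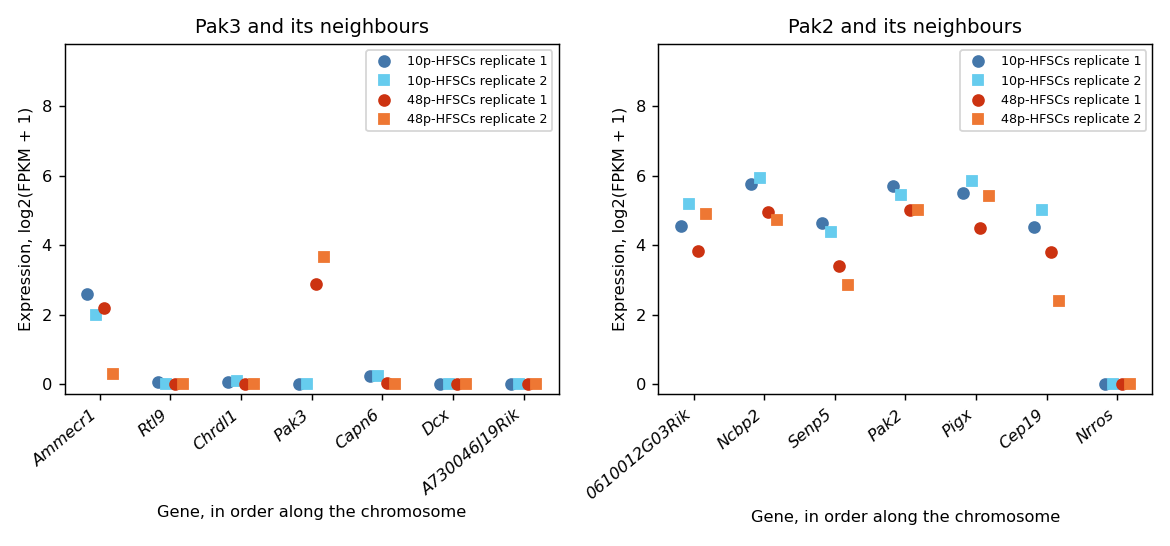
Expression on the log2(FPKM + 1) scale of Pak3 (left) and Pak2 (right) and the 3 nearest protein-coding genes on each side, in order along the chromosome and not to distance, in the 4 libraries. Pak3 is the one gene on the left with higher values in 48p-HFSCs, and 5 of its neighbours lie near 0 in every library, whereas 4 of the 5 expressed neighbours of Pak2 lie lower in both 48p-HFSC libraries, as Pak2 does, and 0610012G03Rik overlaps.

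The genes with the pattern most like Pak3, by Euclidean distance of log2(FPKM + 1) over the 4 libraries, were Tgm1 (distance 0.10), Nudt11 (0.22), G6pc3 (0.23), Mdp1 (0.37) and Akip1 (0.38). Tgm1, a transglutaminase of the cornified envelope, was at 0.0369 and 0.0268 FPKM after 10 passages and at 6.57 and 11.1 FPKM after 48, and Nudt11, also on chromosome X, at 0 and 0 against 7.58 and 11.9. The genes most like Pak2 were Ddx24 (0.16), Zfp330 (0.18), Ankrd40 (0.20), Prrc2a (0.22) and Uso1 (0.23), which lie on chromosomes 12, 8, 11, 17 and 5. None of these 5 was called. The distances are given as a description.

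Beyond the 10 genes, 130 genes of the CDC42 and PAK pathway were listed by their known roles, with earlier results of these data known. Of these, 127 were in the files and 96 passed the filter, and 7 rose and 11 fell in 48p-HFSCs (limma, adjusted over all 11018 genes), which is 18.8% called beside 19.9% of all genes tested. Their median log2 difference was -0.09, against -0.03 over all genes. The share called was thus near the background. Before adjustment, 45 of the 96 genes had a p-value under 0.05 in limma, beside 37.4% of all genes tested. Of the 96 genes, 8 passed the filter through one group alone and so had to differ, and 5 of these were called, Fmnl2, Fgd4, Plekhg4, Sept1 and Sept5, for which no p-value is given below. With replicate 1 or replicate 2 of 10p-HFSCs left out, 0 rose and 2 fell, beside the drop over all genes given above, while the log2 difference was 3.09 or 2.96 for Baiap2l1, 2.58 or 2.63 for Arpc1b and -2.75 or -2.73 for Arhgap24. Without replicate 1 of 48p-HFSCs 14 rose and 18 fell, and Plekhg4 was no longer called. Without replicate 2 of 48p-HFSCs 8 rose and 6 fell, and Arhgef16, Vav3, Plekhg4, Fgd4, Itsn1, Arhgap22, Arhgdib and Sept1 were no longer called. Under TPM rescaling, where the median of all genes was -0.56, 2 rose and 6 fell.

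Of 23 other genes listed as CDC42 effectors and tested, 3 rose and 1 fell, with a median log2 difference of 0.25. Whether the protein of each listed gene binds CDC42 was not tested. An unadjusted p-value under 0.05 in limma was found for 13 of them. All genes tested gave 10.8% higher, 9.15% lower and 37.4% under that unadjusted p-value. Baiap2l1, an I-BAR protein of membrane protrusions, rose from 5.96 and 5.36 to 53.5 and 52.6, by 3.02 on the log2 scale (SE 0.24, limma adjusted p = 0.0012). Prkcz, an atypical protein kinase C of the polarity complex with PAR6, rose from 2.23 and 3.47 to 15.3 and 22.9 (2.38, limma adjusted p = 0.0068). Cdc42se1, a small CRIB protein, rose from 32.5 and 35.4 to 88.7 and 101.2 (1.46, limma adjusted p = 0.014), and both calls were lost under TPM rescaling, at log2 differences of 1.94 and 0.88. Fmnl2, a formin that elongates actin filaments, was at 4.76 and 4.22 in 10p-HFSCs and listed at 0 in each 48p-HFSC library.

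Exchange factors, which load CDC42 or RAC with GTP, had a median log2 difference of -0.63 over 23 genes tested. Of these, 1 rose and 5 fell, with 13 at an unadjusted p-value under 0.05 in limma. Over all genes tested, 10.8% rose, 9.15% fell and 37.4% were under that unadjusted p-value. Fgd4 and Plekhg4, among the 5, passed the filter through 10p-HFSCs alone. Without the filter on low values 2 of the list fell, and under TPM rescaling 1 fell. Dock8, a CDC42 exchange factor, fell from 4.43 and 3.48 to 1.17 and 0.413 (log2 difference -1.49, limma adjusted p = 0.024). Plekhg4 was at 1.05 and 2.41 against 0.0595 and 0.0528. Vav3 fell from 25.2 and 22.7 to 11.1 and 8.46 (-1.22, limma adjusted p = 0.028). Arhgef16 was the one that rose, from 16.2 and 20.4 to 45.1 and 49.9 (1.34, limma adjusted p = 0.019). Under TPM rescaling Dock8 and Vav3 had larger log2 differences of -1.91 and -1.77 but were not called (limma adjusted p = 0.052 and 0.085), and Arhgef16 was not called at 0.78. Without the filter on low values Dock8 was not called either, at the same difference (limma adjusted p = 0.064). Of 14 genes of GTPase-activating proteins and GDIs, which switch these GTPases off or hold them in the cytosol, 2 rose and 1 fell, with 5 at an unadjusted p-value under 0.05 in limma. Arhgap24, a RAC-directed activating protein that binds filamin, fell from 17.1 and 17.3 to 3.16 and 0.783 (-2.74, limma adjusted p = 0.011). Arhgap22 rose from 4.39 and 6.81 to 15.7 and 21.2 (1.57, limma adjusted p = 0.023) and Arhgdib from 5.79 and 8.53 to 19.1 and 31.3 (1.66, limma adjusted p = 0.025), and both calls were lost under TPM rescaling, at 1.07 and 1.14, and without the filter, at the same differences (limma adjusted p = 0.053 and 0.058).

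Among the partners and targets of PAK kinases, single genes passed the test. Of 8 scaffold and phosphatase genes, 1 fell and 0 rose, with 4 at an unadjusted p-value under 0.05 in limma. The shares over all genes tested were 10.8% higher, 9.15% lower and 37.4% under that unadjusted p-value. Ppm1f, a phosphatase that removes activating phosphate from PAK kinases, fell from 16.6 and 16.7 to 5.75 and 3.14 (log2 difference -1.74, limma adjusted p = 0.018). Under TPM rescaling its difference was larger, at -2.26, but it was not called (limma adjusted p = 0.062). Git1, a scaffold that holds PAK kinases at adhesions, was at 22.3 and 27.6 against 44.7 and 59.4 and was not called. Of 18 genes of PAK substrates and the LIM kinase and cofilin branch, 1 rose and 1 fell, with 5 at an unadjusted p-value under 0.05 in limma. Arpc1b, an ARP2/3 subunit that PAK1 phosphorylates, rose from 49.8 and 51.6 to 243 and 406 (2.61, limma adjusted p = 0.0058). Nf2, which encodes merlin, an inhibitor of PAK1 and a substrate of PAK kinases, fell from 81.4 and 74.3 to 35.5 and 15.6 (-1.68, limma adjusted p = 0.038). Without the filter on low values it was not called at the same difference (limma adjusted p = 0.082), and under TPM rescaling it was called at -2.25 (limma adjusted p = 0.019). Limk1 was at 10.9 and 12.0 against 20.1 and 23.7, Limk2 at 64.1 and 78.1 against 49.9 and 33.9, and Cfl1 at 1310 and 1563 against 1598 and 3246, none of which was called.

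Septins, the binding partners of the CDC42 effector proteins, had 0 genes called higher and 2 called lower of 9 tested. Their median log2 difference was 0.45, and 5 genes had an unadjusted p-value under 0.05 in limma. Among all genes tested, 10.8% were called higher, 9.15% lower and 37.4% had such a p-value. Sept5 was at 5.19 and 6.51 and Sept1 at 1.37 and 2.51 in 10p-HFSCs, and each had an FPKM of 0 throughout 48p-HFSCs. The abundant septins were not called. Sept2 was at 75.8 and 69.0 against 96.7 and 121, Sept9 at 44.6 and 55.2 against 79.8 and 82.8, and Sept7 at 85.6 and 77.2 against 54.1 and 52.3. The groups of these 3 septins did not overlap, upward for Sept2 and Sept9 and downward for Sept7.

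**Figure D5:**
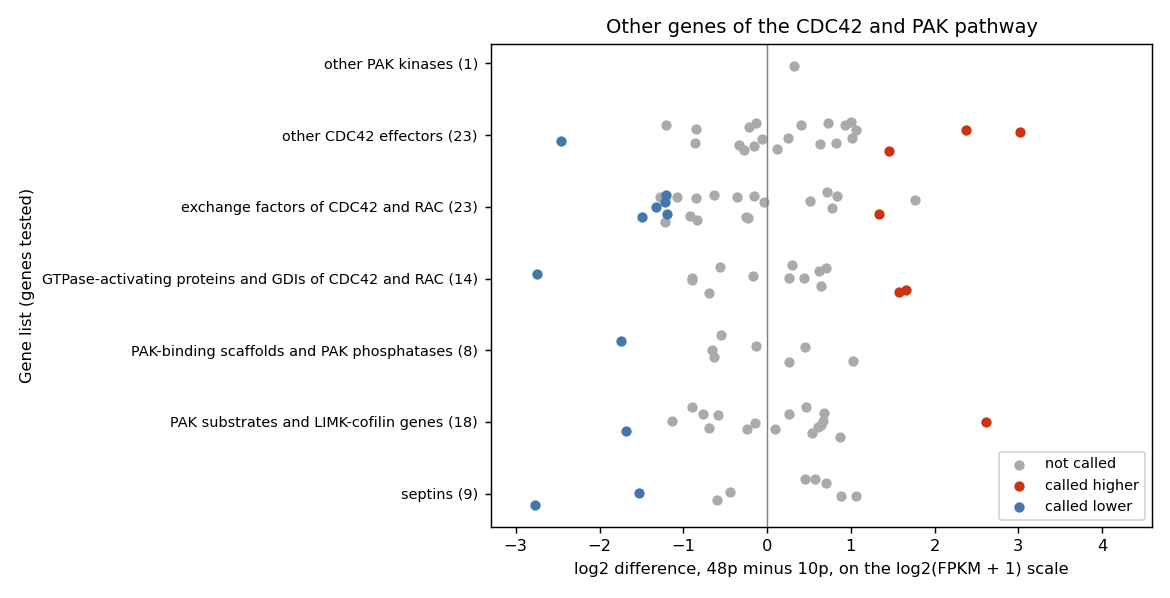
Log2 difference (48p-HFSCs minus 10p-HFSCs, on the log2(FPKM + 1) scale) of each of the 96 tested genes in 7 pathway lists, 1 point per gene, with called genes in red (7 higher) and blue (11 lower) and the others in grey. Points are moved up or down within a list at random, and called genes lie on both sides of 0.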

How the data were processed

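Polyadenylated RNA of 2 libraries of 10p-HFSCs and 2 of 48p-HFSCs was sequenced from one end after a stranded library preparation. The authors mapped the reads to mm10 and deposited FPKM values per gene symbol. The submitters' processing notes name TopHat2 2.1.1, Bowtie2 2.2.8, SAMtools 0.1.18 and Cuffdiff 2.2.1, while the paper's methods name Cufflinks and other versions of Bowtie2 and SAMtools. The gene annotation and strand setting are not given in the sources used here. FPKM values are not counts, so no count test was run, and absolute depth is unknown.

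FPKM was taken to log2(FPKM + 1) without further scaling. Scaling factors by the median of ratios were 1.00 to 1.01, although summed FPKM was 581516 to 1414953. Whether the authors' values were already scaled between libraries is not given in the sources used here. The 11018 genes that reached an FPKM of 1 in 2 or more libraries were fitted together in limma 3.58.1 (R 4.3.3, variance trend, Benjamini-Hochberg adjustment over all of them). A gene was called where the adjusted p was below 0.05 and the log2 difference was 1 or more in size. The study's own comparison used other software on counts. For a single gene, 2 against 2 libraries allow an exact permutation test a two-sided p of 0.333 at the lowest. The 10 genes and the pathway and marker lists were chosen with earlier results of these data known. Genes named beyond the 10 are, from each pathway list, the called genes with the 3 largest differences in each direction, the 5 nearest patterns and 3 neighbours on each side of the members with the largest and the smallest difference, and the markers. Fgd4, Itsn1, Pak5, Pak6, Git1, Limk1, Limk2, Cfl1, Sept2, Sept7 and Sept9 were named after their values were seen. One pathway list is not reported here. Positions came from GENCODE M21 and start-site windows from RefSeq (GRCm38.p6). Alternatives were a pseudocount of 0.1, no filter, a mean FPKM of at least 1, TPM rescaling, quantile normalization, scaling by the median of ratios, a variance prior without trend, the replicate block, each library left out and, added after the values were seen, a ratio without pseudocount.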

Additional observations from a re-analysis of the deposited data

How the results depend on the processing

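Without the filter on low values (16679 genes with any value above 0), 816 genes were called higher in place of 1189 and 637 lower in place of 1008. Of the 10 genes, 1 was then called higher in place of 3. Pathway genes called higher were 5 in place of 7, and those called lower 7 in place of 11. Under TPM rescaling, 623 genes were called higher in place of 1189 and 812 lower in place of 1008. There, 1 of the 10 genes was called higher, and 2 pathway genes were called higher in place of 7, and 6 lower. This rescaling moved the median log2 difference of all genes from -0.03 to -0.56 and the share of calls that were higher from 54.1% to 43.4%, and it lowered the log2 differences of Pak1, Pak2, Pak4, Cdc42, Cdc42ep3 and Cdc42ep4 to 0.59, -1.16, 0.12, 0.25, 0.26 and -0.70. With single libraries left out, 35 to 1936 genes were called higher and 140 to 1875 lower, 0 to 5 of the 10 genes were called higher and 0 to 1 lower, and 0 to 14 pathway genes were called higher and 2 to 18 lower. The lowest counts came with a 10p-HFSC library left out, where the log2 differences of Pak1, Pak3 and Cdc42ep2 stayed between 1.14 and 1.17, at 3.27 and between 1.80 and 2.04. A lone library was then assumed to vary like the other group. The cause of these changes was not tested.

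Same-numbered libraries deviated from their group means with a correlation of 0.41 over genes, but 2 pairs do not settle whether the numbers pair the samples. With the replicate block, 1613 genes were called higher and 1497 lower, 13 pathway genes higher in place of 7 and 16 lower, and the same 3 of the 10 genes. No sign of a called gene among the 10 reversed under any alternative run. The low values of Cdc42ep2, Cdc42ep4 and Cdc42ep5 are coarse, most in replicate 2 of 48p-HFSCs, where low values were spaced most widely.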
